A study of Mus musculus with 36 samples.

Results

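The 10 chemokine and inflammatory cytokine genes chosen by name, were followed through single microglia of the APP/PS1 mouse model of amyloid deposition: Ccl2, Ccl3, Ccl4, Ccl6, Ccl9, Ccl12, Cxcl16, Il1b, Tnf and Il16. All 10 had a row among the 26348 genes in the count tables, and 9 of them passed the filter on low counts that left 14892 genes for testing. Tnf did not pass it and is given by its counts only. Male mice aged 6 months were either transgenic (APPswe/PSEN1dE9, called APP here) or wild-type (WT) controls, and the transgene promoters are not named in the sources. Live nucleated CD11b-high, CD45-intermediate cells were sorted from cortex or hippocampus by the integrin CD11c. This gave 6 groups: WT CD11c-negative, APP CD11c-negative and APP CD11c-positive cells from each region, with no WT CD11c-positive group. Counts were summed over the cells of 1 animal, region and gate, giving 4 replicates a group and 3 for APP hippocampus CD11c-positive cells, whose titles name them 1-2, 2-3 and 4. The sources do not say whether the first 2 are pools of animals that share animal 2.

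Chemokines are small secreted proteins that draw leukocytes along a gradient by binding G-protein-coupled receptors. Ccl3, Ccl4, Ccl6 and Ccl9 belong to the macrophage inflammatory protein branch, whose receptors include Ccr1. Ccl2 and Ccl12 are ligands of the monocyte receptor Ccr2. Cxcl16 is made as a membrane-bound ligand of Cxcr6 and is released by the protease Adam10. Il1b and Tnf encode the classical inflammatory cytokines of activated macrophages, and the Il1b product is cut to its active form by caspase-1. Il16 encodes a precursor whose released fragment attracts CD4-bearing cells. In amyloid models, microglia near plaques lose part of their resting profile and gain lysosomal, lipid and chemokine genes, and CD11c marks many of them.

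On GRCm38, 7 of the 10 genes lie on chromosome 11. Ccl9 (83572919 to 83578636, minus strand) and Ccl6 (83587882 to 83593087, minus strand) are neighbours separated by 9245 bases. Ccl3 (83647844 to 83649355, minus strand) follows 54756 bases further on, and Ccl4 (83662584 to 83664683, plus strand) 13228 bases after that. Ccl2 (82035571 to 82037453, plus strand) and Ccl12 (82101845 to 82103400, plus strand) form a second pair 64391 bases apart. Cxcl16 (70453983 to 70459984, minus strand) stands alone. Il1b lies on chromosome 2 (129364570 to 129371139, minus strand), Tnf on chromosome 17 (35199381 to 35202007, minus strand) and Il16 on chromosome 7 (83642825 to 83745726, minus strand). Of these, 3 genes share ground with a gene on the other strand, and whether counting used strand is not stated in the sources: Il16 overlaps Stard5 (mean of 32.4 CPM over the 23 replicates), Cxcl16 overlaps Zmynd15 (3.05 CPM) and Ccl6 overlaps E230016K23Rik (0.0882 CPM). CPM are counts per 1000000 counts with TMM scaling, which adjusts library totals for composition. Summed levels of marker and gene lists are the exception and are CPM without TMM scaling.

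RefSeq promoter sequences on GRCm38.p6 were at hand for 7 of the 10 genes. Those of Ccl6, Ccl9 and Ccl3 are shown because these close neighbours had different patterns over the groups: Ccl6 and Ccl3 were high in CD11c-positive cells and Ccl9 was not. Each is the 250 bases before the RefSeq start on the minus strand of chromosome 11, at chr11:83593088-83593337 for Ccl6, chr11:83578637-83578886 for Ccl9 and chr11:83649379-83649628 for Ccl3. Capitals mark the PU.1 core AGGAAG or its reverse complement, and a match to the kappa B consensus.
Ccl6: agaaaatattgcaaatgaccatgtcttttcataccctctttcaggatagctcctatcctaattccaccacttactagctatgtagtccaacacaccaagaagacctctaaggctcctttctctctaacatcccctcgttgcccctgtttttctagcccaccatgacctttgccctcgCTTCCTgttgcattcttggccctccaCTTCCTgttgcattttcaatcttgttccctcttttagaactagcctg
Ccl9: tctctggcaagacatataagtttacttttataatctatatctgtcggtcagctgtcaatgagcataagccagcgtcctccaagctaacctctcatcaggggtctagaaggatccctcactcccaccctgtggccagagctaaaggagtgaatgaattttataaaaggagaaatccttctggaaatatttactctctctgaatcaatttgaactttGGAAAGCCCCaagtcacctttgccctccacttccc
Ccl3: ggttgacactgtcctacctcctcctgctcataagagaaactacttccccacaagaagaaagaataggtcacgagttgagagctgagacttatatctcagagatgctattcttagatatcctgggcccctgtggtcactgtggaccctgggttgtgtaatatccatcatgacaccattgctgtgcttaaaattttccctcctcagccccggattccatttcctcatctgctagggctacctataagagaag

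The Ccl6 stretch held 2 PU.1 cores, 73 and 47 bases before the start and neither overlapping another searched motif, and the Ccl9 and Ccl3 stretches held none. Of 32536 distinct promoter stretches of the same length, 29.6% held at least 1 such core on either strand. Ccl9 had the single kappa B match, at a motif found in 3.92% of promoters, and it overlapped a match to the C/EBP pattern TTNCNNAA. Ccl9 held that C/EBP pattern 2 times in all, Ccl3 once and Ccl6 not at all, against 36.8% of promoters holding it. The AP-1 pattern TGANTCA was present once in Ccl9 and in neither of the other two, against 6.73% of promoters. These matches describe letters in a short window, and no binding was measured.

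The 2657 cells kept had 69 to 80 barcodes per library over 36 libraries, and summed replicates held 1037425 to 4484427 counts. Libraries drew on 83 distinct well barcodes and shared 59 to 79 of them pair by pair, so a barcode names a well and not a cell. All 14 microglia markers had counts in every group. Their summed level, without TMM scaling, was lower in CD11c-positive cells, with 11078 to 12867 against 15560 to 19050 CPM in APP cortex and 15406 to 17700 against 24209 to 28563 CPM in APP hippocampus. Between the gates 5 of the 14 were called lower in cortex and 3 in hippocampus by edgeR, and 0 higher. Of all genes, 1.23% and 0.551% were called in either direction. The part of these markers in the differences of the chemokines was not tested. Itgax, which encodes CD11c, averaged 159 ± 50.5 CPM (SD, n = 4) in CD11c-positive cortex and 76.0 ± 10.4 CPM (n = 3) in CD11c-positive hippocampus, against group means from 0 to 8.73 CPM in the CD11c-negative groups. It had a count in 17.2% of CD11c-positive cortex cells and 13% of CD11c-positive hippocampus cells. CD11c-positive cells also yielded more genes: at 5000 counts per cell, 836 ± 136 genes in cortex (n = 4) and 872 ± 135 in hippocampus (n = 3), against 436 to 622 in the CD11c-negative groups. The share of mitochondrial counts also moved with the gate, at 2.08 to 3.24% in CD11c-positive and 0.903 to 1.75% in CD11c-negative replicates of APP cortex, and at 2.01 to 2.66% and 1.10 to 1.20% in APP hippocampus. Its part in the differences between the gates was not tested. The genotype tag of the labels contradicts the title in 17 libraries, among them all 5 of CD11c-positive hippocampus and 2 of 8 of CD11c-positive cortex, which are tagged wild-type, and groups follow the titles. Summed levels alone, as in bulk samples, do not tell fewer cells carrying a transcript from less transcript per cell. Shares of cells with a count, and counts per cell for some members, are given beside them.

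**Figure D1:**
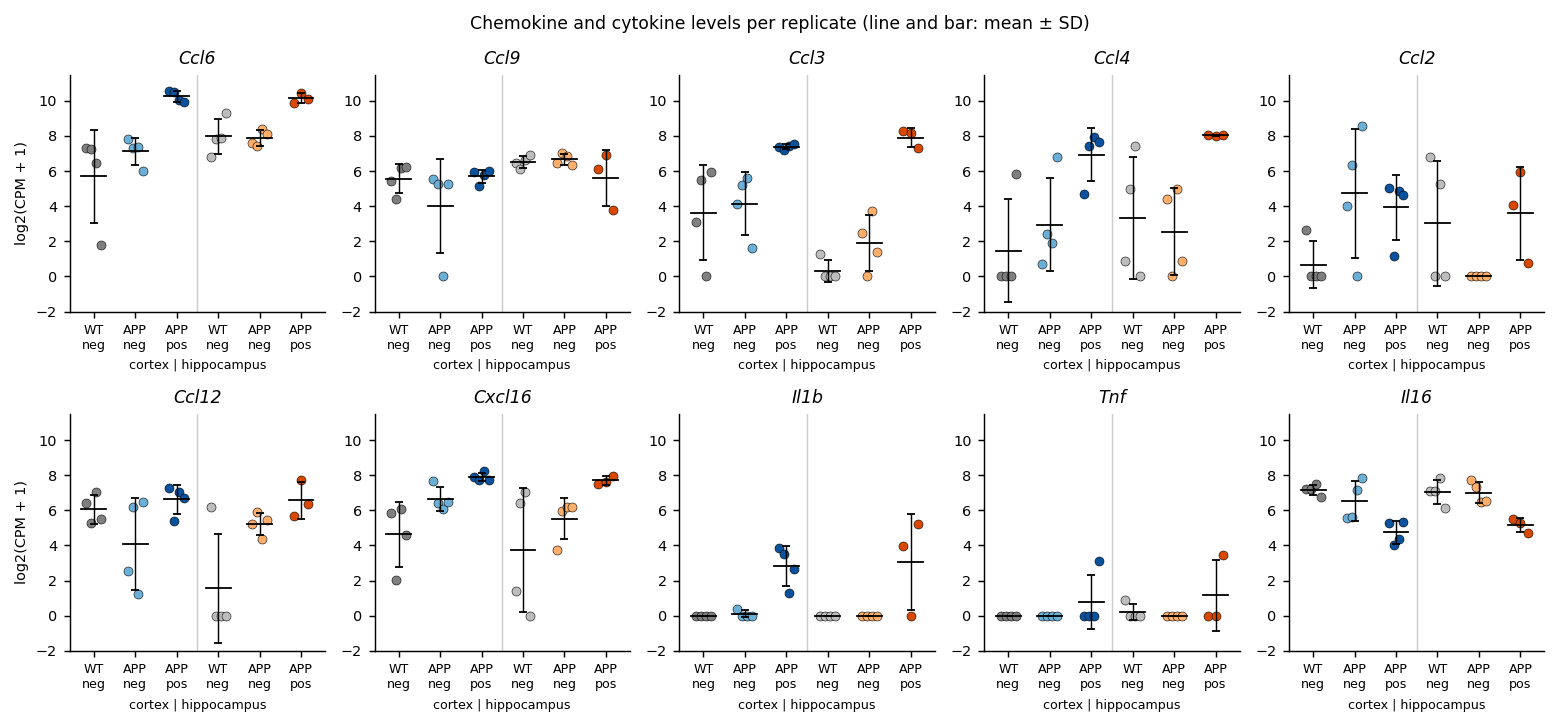
Level of each gene in each replicate as log2(CPM + 1), by group, with the cortex groups to the left of the grey line and the hippocampus groups to the right; neg and pos are the CD11c gates, and line and bar are mean ± SD of the log2 values. All CD11c-positive replicates of Ccl6 lie above all CD11c-negative ones, and all CD11c-positive replicates of Il16 lie below all CD11c-negative ones.

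Ccl6, a macrophage chemokine that binds Ccr1, rose in CD11c-positive cells of the cortex against both CD11c-negative APP and WT cells. Its cortex levels were 1539, 1440, 1051 and 996 CPM in the 4 CD11c-positive replicates, and 223, 157, 162 and 64.2 CPM in the CD11c-negative replicates of the same 4 animals. The WT cortex replicates held 159, 155, 85.5 and 2.44 CPM. Every CD11c-positive replicate stood above every CD11c-negative one. In hippocampus the 3 CD11c-positive replicates held 957, 1422 and 1089 CPM. The APP CD11c-negative replicates held 193, 169, 339.5 and 280.5 CPM, and the WT replicates 113, 229.5, 235.5 and 636.5 CPM. Again no CD11c-positive replicate overlapped a CD11c-negative one.

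The fitted log2 fold change of Ccl6 between the gates was 3.05 ± 0.66 (SE) in cortex, with an adjusted p of 0.0152 by the quasi-likelihood test of edgeR, adjusted by Benjamini-Hochberg over all genes, and it was higher in 4 of 4 animals. Against WT cortex it was 3.64 ± 0.68 with an adjusted p of 0.00484, and of 0.0504 with only those groups in the fit. In hippocampus the log2 fold change between the gates was 2.24 ± 0.67, with an adjusted p of 0.172 in the same test, and against WT 1.93 ± 0.66 with an adjusted p of 0.146. The gate effect was not shown to differ between the regions, since the interaction had an adjusted p of 1. The cortex gate call was lost without CD11c-negative replicate 2, 3 or 4 or CD11c-positive replicate 1, with adjusted p from 0.0538 to 0.0677, and when the fit included the number of genes per cell (log2 fold change 3.72, adjusted p 0.102). Without the cells that carried at least 2 markers of 1 other cell type it was 2.99, with an adjusted p of 0.0233.

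The rise of Ccl6 was spread over most CD11c-positive cells. It had a count in 401 of 587 CD11c-positive cortex cells (68.3%, exact 95% interval 64.4 to 72.1%) and in 279 of 362 CD11c-positive hippocampus cells (77.1%, 72.4 to 81.3%), and the intervals cover counting error only. The share in CD11c-negative cells was 7.69% in WT cortex, 13.7% in APP cortex, 12.8% in WT hippocampus and 25.1% in APP hippocampus. With each cell thinned to 5000 counts the shares were 62.9% and 59.2% in the CD11c-positive groups and 5.73 to 15.4% in the CD11c-negative ones. The 5 cells with the most Ccl6 held 6.12% of its counts in CD11c-positive cortex, against 51.0% in APP CD11c-negative cortex. A share of cells reads the same libraries as the levels and is no separate replicate.

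**Figure D2:**
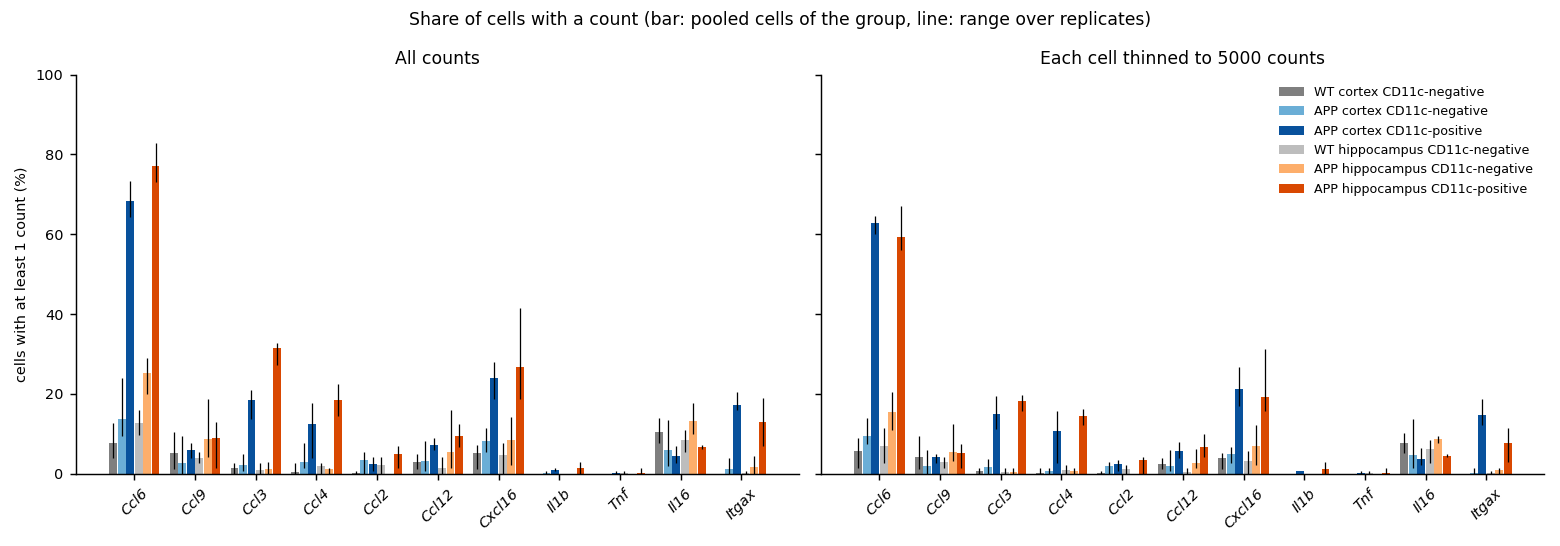
Share of cells (%) with at least 1 count of each gene in each group, with all counts on the left and each cell thinned to 5000 counts on the right; bars pool the cells of a group and thin lines span its replicates. Ccl6 reaches 68.3% and 77.1% in the CD11c-positive groups, while Il1b and Tnf stay at or below 1.38% everywhere.

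Ccl9, the neighbour of Ccl6 and likewise a macrophage chemokine, did not share its pattern. Its levels were 59.5, 35.2, 53.4 and 62.2 CPM in CD11c-positive cortex, 45.1, 38.0, 0 and 36.7 CPM in APP CD11c-negative cortex, and 43.1, 20.5, 70.5 and 74.9 CPM in WT cortex. In hippocampus they were 69.0, 119 and 12.8 CPM in CD11c-positive cells, 87.1, 128, 116 and 80.1 CPM in APP CD11c-negative cells and 88.7, 67.6, 96.4 and 121 CPM in WT cells. The gates overlapped in both regions. No comparison reached an unadjusted p under 0.05. The order of its group means ran from APP CD11c-negative hippocampus (103 ± 22.9 CPM) and WT hippocampus (93.4 ± 22.0 CPM) down to APP CD11c-negative cortex (29.9 ± 20.3 CPM), and neighbours in that order overlapped. Its ends did not: all APP CD11c-negative replicates of hippocampus stood above those of cortex, with an adjusted p of 0.273 in edgeR's test. The difference between the responses of Ccl6 and Ccl9 was not tested.

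Ccl3 and Ccl4, macrophage inflammatory proteins encoded side by side, were highest in CD11c-positive cells of both regions. Ccl3 held 163, 148, 170 and 184 CPM in the CD11c-positive cortex replicates, 16.7, 35.8, 46.9 and 2.04 CPM in APP CD11c-negative cortex and 7.55, 44.5, 0 and 60.9 CPM in WT cortex. In hippocampus it held 309, 283 and 155.5 CPM in CD11c-positive cells, 4.53, 0, 12.2 and 1.64 CPM in APP CD11c-negative cells and 1.41, 0, 0 and 0 CPM in WT cells. In both regions the CD11c-positive replicates stood clear of all CD11c-negative ones. Against WT hippocampus Ccl3 rose, with a log2 fold change of 9.02 ± 1.63 and an adjusted p of 0.00212 in edgeR's quasi-likelihood test, higher in 3 of 3 replicates than in any control. That fold rests on 2494 counts against 5, so its size is uncertain. The call held in 7 of 7 fits that left out a replicate and was lost when the fit included genes per cell (7.79, adjusted p 0.396).

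Between the gates the log2 fold change of Ccl3 was 5.69 ± 1.38 in hippocampus and 2.70 ± 1.18 in cortex, with adjusted p of 0.0591 and 0.354 in the same edgeR test, so neither passed. DESeq2 called the hippocampus difference (adjusted p 0.00015), as did 3 other settings. The interaction of gate and region had an adjusted p of 0.75, so the regions were not shown to differ. Ccl3 was also lower in WT hippocampus than in WT cortex (-5.87 ± 1.45, adjusted p 0.0359). That difference rests on 5 counts against 229, the 229 came from 6 cells, and 1 of these cells held 44.1% of them. The call was lost without WT cortex replicate 2 or 4 or WT hippocampus replicate 2, 3 or 4 (adjusted p 0.0764 to 0.111). It was also lost without cells carrying other markers (-6.96, adjusted p 0.276), with thinning (-4.28, adjusted p 0.158) and when the fit included genes per cell (-5.30, adjusted p 0.165). Over all genes, those last fits called 3, 29 and 17 lower between WT regions and 0 higher, while the fit reported first called 243.

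Ccl4 held 25.0, 171, 244 and 205 CPM in CD11c-positive cortex and 267, 253 and 266 CPM in CD11c-positive hippocampus. In the CD11c-negative groups most replicates were near 0 and single replicates were high: 109 CPM in APP cortex replicate 4, 56.7 CPM in WT cortex replicate 4 and 171 CPM in WT hippocampus replicate 3. The gates overlapped in cortex and not in hippocampus. In hippocampus the log2 fold change between the gates was 4.33 ± 2.02, with an adjusted p of 0.439 in edgeR's test, and no comparison of Ccl4 passed. The high single replicates rested on few cells: 1 cell held 98.9% of the Ccl4 counts of WT cortex and 1 cell 78.2% of those of APP CD11c-negative cortex.

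Cells with Ccl3 carried Ccl4 more often than cells without it. After thinning, Ccl4 was found in 29.4% of the 85 CD11c-positive cortex cells with Ccl3 and in 7.41% of the cells without. In CD11c-positive hippocampus the shares were 25.0% of 64 cells and 12.1%. Ccl3 was found in 18.4% of CD11c-positive cortex cells with Ccl6 and 8.96% of those without, and in 23.9% and 9.72% of the hippocampus cells. Cxcl16 was found in 19.5% of CD11c-positive cortex cells with Ccl6 and in 24.1% of those without. Cells of 1 library share their source, so these shares are a description. After thinning, a CD11c-positive cell held on average 1.26 of the 10 genes in cortex and 1.32 in hippocampus, against 0.230 to 0.403 in the CD11c-negative groups. At least 3 of the 10 were found in 65 of 571 CD11c-positive cortex cells and 43 of 353 CD11c-positive hippocampus cells.

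**Figure D3:**
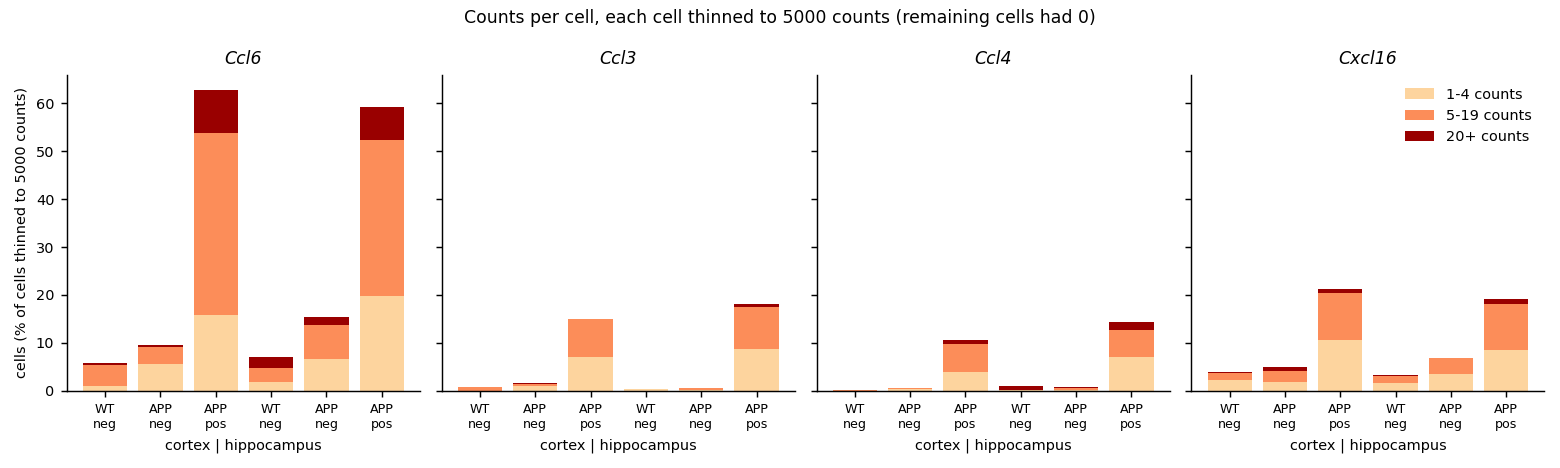
Share of cells (%) in 3 classes of counts for Ccl6, Ccl3, Ccl4 and Cxcl16, each cell thinned to 5000 counts, by group; the cells not drawn had 0 counts. For Ccl6, 9.11% of CD11c-positive cortex cells and 6.80% of CD11c-positive hippocampus cells held 20 or more counts, against 0.260 to 2.34% of CD11c-negative cells.

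The Ccr2 ligands Ccl2 and Ccl12 overlapped between the gates, except for Ccl2 in hippocampus. Ccl2 held 376 CPM in 1 APP CD11c-negative cortex replicate and 15.1, 79.5 and 0 CPM in the others, and 32.2, 1.22, 28.3 and 24.3 CPM in CD11c-positive cortex. It held 112, 0, 37.6 and 0 CPM in WT hippocampus, 5.31, 0, 0 and 0 CPM in WT cortex, and 15.7, 61.0 and 0.676 CPM in CD11c-positive hippocampus. It had 0 counts in all 4 replicates of APP CD11c-negative hippocampus, where 0 of 426 cells allows a share of up to 0.704% of cells with a count. WT hippocampus was at least 146-fold higher and CD11c-positive hippocampus at least 88.3-fold higher than that group, against 3 counts over the group. Both limits take each count as a separate event and may be too high. A single cell held 43.6% of the WT and 52.7% of the CD11c-positive counts. These limits rest on single replicates: without WT replicate 1 the first was 40.9-fold, and without CD11c-positive replicate 2-3 the second was 38.9-fold. The genotype difference in Ccl2 differed between regions, with an adjusted p of 0.0376 for the interaction in edgeR's quasi-likelihood test. No size is given for it, because a group was at 0.

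The Ccl2 interaction rests on few cells. In APP CD11c-negative cortex 16 of 454 cells had a Ccl2 count and 1 of them held 45.1% of the 748 counts, and in WT cortex a single cell held all 19 counts. The call was lost in 10 of 16 fits that left out 1 replicate, among them the fit without APP CD11c-negative cortex replicate 4 (adjusted p 0.1). It was also lost when the fit included genes per cell (adjusted p 0.115) and with only the compared groups in the fit (adjusted p 0.0889).

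Ccl12 held 155, 41.9, 133 and 104 CPM in CD11c-positive cortex and 49.6, 211 and 79.8 CPM in CD11c-positive hippocampus. The other group means were 74.8 ± 44.0 CPM in WT cortex, 41.2 ± 44.5 in APP CD11c-negative cortex, 39.3 ± 16.2 in APP CD11c-negative hippocampus and 18.4 ± 36.8 in WT hippocampus (SD, n = 4 each). The gates overlapped in both regions, and no comparison reached an unadjusted p under 0.05. The WT hippocampus mean came from 1 replicate with 73.5 CPM, where 1 cell held 96.9% of the counts.

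Cxcl16 was highest in the CD11c-positive groups, with 239, 214, 296 and 214.5 CPM in cortex and 183.5, 193 and 252 CPM in hippocampus. APP CD11c-negative cortex held 203.5, 83.6, 65.4 and 86.6 CPM and WT cortex 55.9, 3.05, 65.8 and 23.1 CPM. APP CD11c-negative hippocampus held 12.5, 61.6, 71.8 and 72.0 CPM and WT hippocampus 1.69, 83.7, 133 and 0 CPM. No CD11c-positive replicate overlapped a CD11c-negative one of its region, but the closest pair in cortex, 214 and 203.5 CPM, nearly met. The log2 fold change against WT cortex was 2.70 ± 1.06 with an adjusted p of 0.304 in edgeR's test, and no comparison of Cxcl16 passed. Cxcl16 had a count in 24.0% and 26.8% of CD11c-positive cells of cortex and hippocampus and in 4.79 to 8.45% of CD11c-negative cells. Adam10, the protease that releases it, fell between the gates in cortex (-0.68 ± 0.14, adjusted p 0.00959 in edgeR's test), with means of 1945 ± 276 against 3107 ± 218 CPM (SD, n = 4 each), and in hippocampus the fitted value was 0.32 ± 0.15 (adjusted p 0.443). In CD11c-negative hippocampus Adam10 was also lower in APP than in WT cells (-0.84 ± 0.14, adjusted p 0.000802), and the genotype effect differed between the regions (-1.21 ± 0.20, adjusted p 0.00122). In APP CD11c-negative cells it was lower in hippocampus than in cortex (-0.79 ± 0.14, adjusted p 0.00232).

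Il1b and Tnf were scarce. Il1b had 116 counts in CD11c-positive cortex (13.5, 10.4, 1.43 and 5.25 CPM) and 120 in CD11c-positive hippocampus (14.6, 0 and 35.8 CPM), 1 count in APP CD11c-negative cortex and 0 in the other 3 groups. The CD11c-positive counts lay in 5 of 587 cells and 5 of 362 cells, and 0 of 390, 438 and 426 cells in the groups at 0 allow shares of up to 0.769%, 0.685% and 0.704%. CD11c-positive hippocampus was at least 41.4-fold higher than APP CD11c-negative hippocampus and at least 45.1-fold higher than WT, against 3 counts over the group. Both limits take each count as a separate event and may be too high, since the counts lay in 5 of 362 cells. The counts were 67, 0 and 53 in the 3 replicates, with 53.3% of them in 1 cell, and leaving out replicate 4 gave limits of 27.4-fold and 29.9-fold, while leaving out replicate 2-3 gave 64.0-fold and 69.8-fold. In cortex the ratio between the gates was 82.3 with a counting interval of 14.5 to 3278, which also takes counts as separate events. The adjusted p in edgeR's test was 0.305 in cortex and 0.193 in hippocampus between the gates, so Il1b passed in neither. Tnf was found in 3 cells of the whole set, with 28 counts in 1 CD11c-positive cortex cell, 15 in 1 CD11c-positive hippocampus cell and 3 in 1 WT hippocampus cell.

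Il16 ran opposite to Ccl6 and Ccl3 and fell in CD11c-positive cortex against WT. It held 38.0, 15.3, 20 and 39.0 CPM in CD11c-positive cortex, 45.7, 48.3, 144 and 226 CPM in APP CD11c-negative cortex and 147, 146, 179 and 109 CPM in WT cortex. In hippocampus it held 43.9, 38.3 and 25.0 CPM in CD11c-positive cells, 213, 158, 89.8 and 89.9 CPM in APP CD11c-negative cells and 134, 137, 228 and 69.1 CPM in WT cells. Every CD11c-positive replicate lay below every CD11c-negative one of its region. Against WT cortex the log2 fold change was -2.37 ± 0.57 with an adjusted p of 0.0351 in edgeR's quasi-likelihood test. Between the gates it was -2.04 ± 0.56 in cortex (adjusted p 0.0859) and -1.94 ± 0.62 in hippocampus (adjusted p 0.22), and against WT hippocampus -1.99 ± 0.62 (adjusted p 0.103). DESeq2 called all 4 differences (adjusted p from 0.000115 to 0.00586). The WT cortex call was lost in each of the 8 fits without 1 replicate, with adjusted p from 0.0569 to 0.143 and log2 fold changes from -2.66 to -2.17. It was also lost when the fit included genes per cell (-2.56, adjusted p 0.265), without cells carrying other markers (-2.71, adjusted p 0.0663) and with no gene filter (adjusted p 0.0747).

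**Figure D4:**
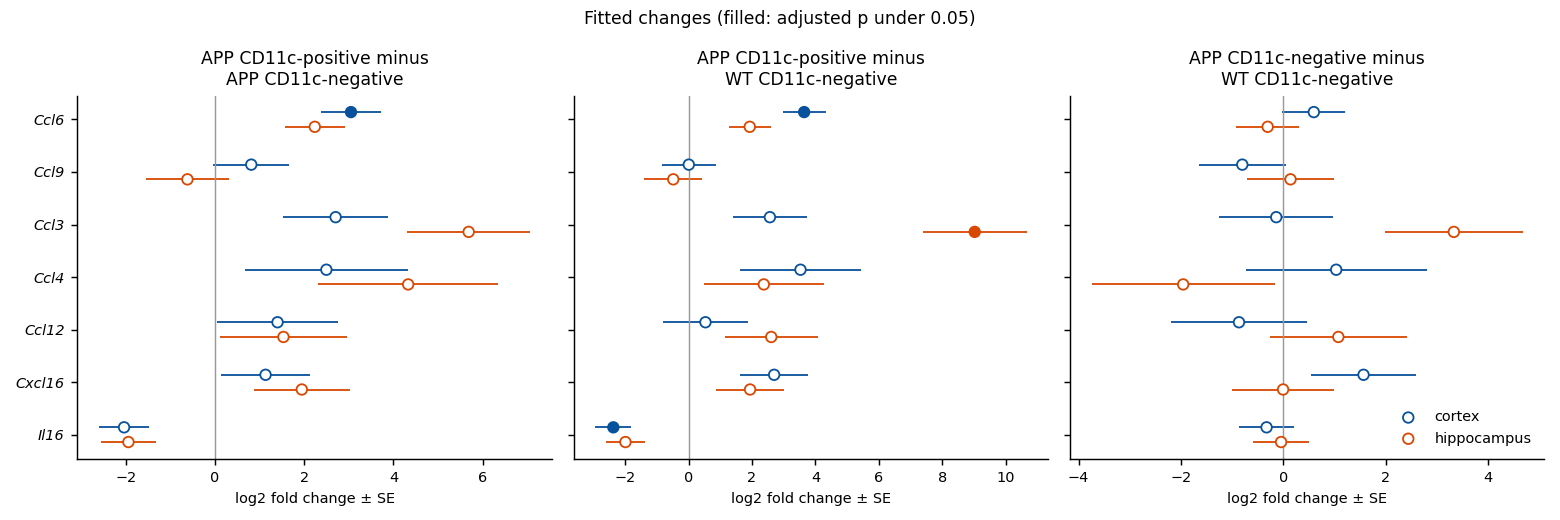
Fitted log2 fold changes ± SE of the 7 genes whose groups all held counts, in cortex (blue) and hippocampus (orange), for the 2 gates within APP, for CD11c-positive APP against WT, and for CD11c-negative APP against WT; filled points passed an adjusted p of 0.05 in edgeR's quasi-likelihood test. Ccl6 in cortex (3.05 and 3.64) and Ccl3 against WT hippocampus (9.02) are the filled points above 0, and Il16 against WT cortex (-2.37) is the filled point below 0.

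Read against all tested genes, the counts were small. Between the gates in cortex 1 of 9 tested members was called, against 1.23% of all 14892 genes, and in hippocampus 0 of 9 against 0.551%. In hippocampus 6 of 9 had an unadjusted p under 0.05, as did 10.9% of all genes, and DESeq2 called 3 of 9 and 532 of all genes. For CD11c-positive APP cells against WT, 2 of 9 were called in cortex (background 1.07%) and 1 of 9 in hippocampus (2.07%). Replicates did not overlap between the gates for 5 of 9 members in cortex and 6 of 9 in hippocampus, where 12.3% and 11.1% of all genes did so. Against WT the members that did not overlap were 5 of 9 in both regions, against 10.5% of all genes in cortex and 14% in hippocampus. The median log2 fold change of the 9 members between the gates was 1.40 in cortex and 2.24 in hippocampus, and that of all genes 0.19 and 0. The comparisons against CD11c-negative APP and against WT share their CD11c-positive replicates.

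Between the genotypes, in CD11c-negative cells, no member passed the test. None of the 9 was called in cortex (background 0%) or hippocampus (1.52%), in edgeR's test. At an unadjusted p under 0.05 stood 1 of 9 in cortex and 2 of 9 in hippocampus, against 9.09% and 15.8% of all genes. DESeq2 called 1 in each, Ccl2 both times, against 245 and 1072 of all 14892 genes. Ccl3 in hippocampus had a log2 fold change of 3.33 ± 1.35 with an adjusted p of 0.233, on 67 counts against 5. Grouped by the genotype tag of the labels, the sign of that fold change turned, to -1.48. Ccl6 means were 152 ± 65.6 and 100.3 ± 73.4 CPM in APP and WT cortex, and 245 ± 79.0 and 304 ± 229 CPM in hippocampus (SD, n = 4 each), with overlapping replicates.

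Between regions, Ccl3 in WT cells was the only member called, 1 of 9 against a background of 1.63%, and Ccl6 stood at 1.59 ± 0.63 (adjusted p 0.149). In APP CD11c-negative cells 0 of 9 were called (background 2.29%), with 1 of 9 at an unadjusted p under 0.05 (18.6% of all genes). DESeq2 called 1 of 9 there and 1167 of all genes. In CD11c-positive cells 0 of 9 were called by edgeR or DESeq2 (background 0.222% in edgeR), and 0 of 9 had an unadjusted p under 0.05 (11.2% of all genes). For the interaction of gate and region 0 of 9 were called (background 0%), with 1 of 9 at an unadjusted p under 0.05 (7.49% of all genes). DESeq2 called 1 of 9 for it and 246 of all genes. For genotype by region 1 of 9 was called, Ccl2 (background 1.01%). The first number after the gate in the sample titles, whose meaning is not stated, differs between the groups of every comparison but that of the gates in cortex, so its part cannot be told apart from theirs.

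Per length of transcript, the order of the members in CD11c-positive hippocampus was Ccl6 (644 CPM per kilobase of exon), Ccl4 (397), Ccl3 (325), Ccl12 (211), Cxcl16 (69.3), Ccl2 (22.7), Ccl9 (21.9), Il1b (8.82), Il16 (4.54) and Tnf (2.06). Whether counts in these libraries rise with transcript length was not tested, and the order without the division differs. In CD11c-positive hippocampus Cxcl16 (209.5 CPM) then stood above Ccl12 (113 CPM), and in WT cortex Il16 (145 CPM) had the highest mean. In WT cortex the first 3 per length were Ccl12 (139 CPM per kilobase), Ccl6 (55.9) and Ccl3 (36.9), and the replicates of these 3 overlapped in CPM. In the CD11c-negative hippocampus groups Ccl6 led as well, with 169 CPM per kilobase in WT and 137 in APP cells, followed by Ccl4 (76.7) in WT and Ccl12 (73.1) in APP cells.

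Summed levels of some markers of other cells differed with gate or region. All sums of markers are CPM without TMM scaling. In cortex the summed level of 8 oligodendrocyte markers was 132 to 269 CPM in APP CD11c-negative replicates and 387 to 555 CPM in CD11c-positive ones, with 7 and 8 of the 8 detected and Mog at 0 in the CD11c-negative cells. The 8 astrocyte markers summed to 404 to 1217 and 845 to 2097 CPM, all 8 detected in both gates, and these ranges overlapped. In hippocampus their sum was lower in the CD11c-positive gate, at 134 to 146 against 175 to 384 CPM. Between the gates of either region, edgeR called 0 of 8 tested astrocyte and 0 of 7 tested oligodendrocyte markers (background 1.23% in cortex and 0.551% in hippocampus). At least 2 markers of neurons were carried by 42 of 454 APP CD11c-negative and 110 of 587 CD11c-positive cells of the cortex. Of the 587 CD11c-positive cortex cells, 170 carried at least 2 markers of 1 other type. They held 27.1% of the Ccl6, 43.9% of the Ccl3 and 34.4% of the Il16 counts of that group. The Ccl6 part was slightly below their share of the cells, and the Ccl3 and Il16 parts were above it. Without such cells the Ccl6 difference between the gates was 2.99 against 3.05 with them. Neuron markers summed to 393 to 1604 CPM over the cortex groups and to 0 to 185 CPM over the hippocampus groups, where Rbfox3 and Gad1 were at 0 in all 3 groups, and beside the Ccl3 difference between WT regions the fit without such cells is given above.

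In hippocampus, the summed levels of markers of monocytes and of border-associated macrophages, which also make chemokines, were higher in the CD11c-positive gate. Neither edgeR nor DESeq2 called any of the 4 monocyte and 3 macrophage markers tested between these gates (background 0.551% in edgeR). In edgeR's test 2 of each had an unadjusted p under 0.05, as did 10.9% of all genes. The 5 monocyte markers with a row summed to 0 to 36.4 CPM in APP CD11c-negative and 48.6 to 158 CPM in CD11c-positive replicates, with 2 and 5 detected. The 6 macrophage markers with a row summed to 0 to 12.1 and 54.4 to 96.9 CPM, with 2 and 4 detected and Cd163 and Cbr2 at 0 in both. At least 2 macrophage markers were carried by 2 of 362 CD11c-positive cells and at least 2 monocyte markers by 0. Neutrophil markers summed to at most 2.24 CPM in any replicate. The summed levels of dendritic cell, lymphocyte and endothelial markers overlapped between the gates in both regions, with no more than 7 cells of a group carrying 2 of them. The part of these cells in the hippocampus differences of Ccl3, Ccl4 and Cxcl16 was not tested. The fit without cells carrying at least 2 markers of 1 other type cannot test it, since it dropped few cells. These were 16 of the 362 CD11c-positive hippocampus cells, over all other types, with 1.48% of the Ccl3 counts. In that fit Ccl3 against WT hippocampus was 9.20, with an adjusted p of 0.00362 in edgeR's test.

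Among chemokine receptors, Cx3cr1 was lower in CD11c-positive cells. Of 23 chemokine receptor genes listed, 17 had a row and 8 were tested. Cx3cr1, the fractalkine receptor of microglia, fell in CD11c-positive cells of cortex (-1.29 ± 0.17, adjusted p 8.37e-05) and hippocampus (-1.20 ± 0.19, adjusted p 0.00167). It was the only one of the 8 called between the gates in either region, and it was also lower against WT in cortex (-1.38, adjusted p 3.91e-05) and hippocampus (-0.83, adjusted p 0.0157). The median log2 fold change of the 8 receptors between the gates was 1.46 in cortex and 0.447 in hippocampus, so Cx3cr1 and the median differ in sign. Ccr2, the receptor of Ccl2 and Ccl12 and a monocyte marker, averaged 0.674 ± 0.702 CPM in CD11c-positive cortex (n = 4) and 52.3 ± 38.4 CPM in CD11c-positive hippocampus (n = 3). In APP CD11c-negative cells it averaged 21.7 ± 26.8 CPM in cortex and 17.6 ± 14.7 CPM in hippocampus (n = 4 each). The CD11c-positive mean was thus the lower one in cortex and the higher one in hippocampus. WT means were 3.23 ± 6.06 and 1.62 ± 3.24 CPM (n = 4 each).

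Of 26 other chemokine ligand genes listed, 16 had a row and 5 were tested. None of the 5 was called between the gates in edgeR's test, where 0 had an unadjusted p under 0.05 in cortex and 2 in hippocampus, and DESeq2 called 0 and 2. Of all genes, 12.1% and 10.9% had such a p, and DESeq2 called 616 and 532. Cx3cl1, the neuronal ligand of Cx3cr1, was the single call, lower in APP CD11c-negative hippocampus than cortex, with 0 counts against 341 and cortex at least 97.5-fold higher (54.1-fold without cortex replicate 2). It was scarce in hippocampus in the other groups too, with 3 counts against 419 in WT and 1 against 389 in CD11c-positive cells. Neuron markers summed to 507 to 1016 CPM in APP CD11c-negative cortex and 1.77 to 107 CPM in hippocampus, and their part was not tested. Ccl5 averaged 38.3 ± 60.6 CPM in CD11c-positive cortex and 65.0 ± 68.7 CPM in CD11c-positive hippocampus, and Cxcl14 64.8 ± 43.6 and 14.7 ± 13.8 CPM (SD, n = 4 and 3).

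Among 29 other cytokine genes, 20 had a row and 15 were tested, and 2 rose in CD11c-positive cells against WT hippocampus. Mif, macrophage migration inhibitory factor, rose by 4.33 ± 0.84 (log2, adjusted p 0.00459), from 14.8 ± 17.4 CPM (n = 4) to 299 ± 24.9 CPM (n = 3), and processed copies of Mif elsewhere in the genome make its counting uncertain. Spp1, osteopontin, had 0 counts in WT hippocampus and was at least 211-fold higher in CD11c-positive cells (adjusted p 0.041), a limit of 66.4-fold without replicate 1-2. Of 18 cytokine receptor and processing genes, 17 had a row and 16 were tested. Il6ra fell between the gates of the cortex (-1.98 ± 0.40, adjusted p 0.0088). Casp1, whose product cuts the Il1b precursor, had 0 counts in WT hippocampus, and APP CD11c-negative hippocampus was at least 74.5-fold higher (adjusted p 0.022 in edgeR's test). In cortex it was not called between genotypes, with 31.8 ± 35.1 CPM in APP CD11c-negative and 14.6 ± 20.3 CPM in WT cells (SD, n = 4 each). The limits for Spp1 and Casp1 take each count as a separate event and may be too high. Pycard, the inflammasome adaptor, lay between 438 and 720 CPM in all 6 group means and was not called anywhere.

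All 27 listed genes of the NF-kappa B pathway and its feedback had a row and 26 were tested. Cd83 was the only call, up against WT cortex (1.72 ± 0.41, adjusted p 0.0333), and the median log2 fold change of the 26 between the gates was -0.115 in cortex and -0.448 in hippocampus. Of 25 immediate early and heat shock genes, which respond to handling, 21 were tested and 0 were called by edgeR in any of the 11 comparisons. Between the gates of each region 3 of 21 had an unadjusted p under 0.05, where 12.1% of all genes did in cortex and 10.9% in hippocampus. DESeq2 called 1 of the 21 between the gates in cortex and 2 in hippocampus, against 616 and 532 of all 14892 genes. In the comparisons where Ccl3 passed, 7 of 21 had an unadjusted p under 0.05 for CD11c-positive cells against WT hippocampus (17.3% of all genes). Between WT regions it was 8 of 21 (22.2% of all genes). DESeq2 called 5 in each, against 1201 and 1601 of all 14892 genes. The summed level of the listed immediate early and heat shock genes, without TMM scaling, was 1083 to 1258 CPM in CD11c-positive cortex and 1144 to 1587 CPM in APP CD11c-negative cortex. In hippocampus it was 968 to 1228 CPM and 1200 to 1505 CPM, and in WT hippocampus 1495 to 1997 CPM, which did not overlap the CD11c-positive range. In WT cortex it was 1386 to 2116 CPM. The highest CD11c-positive sum lay below the highest CD11c-negative sum in both regions. Jund, Btg2 and Klf6 had the highest levels of the list.

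The genes most like each member over the 23 replicates, by Pearson's r of log2(CPM + 1) among about 3480 genes with a mean of at least 50 CPM, differed from member to member. They were Atp6v0c (0.909) and the pseudogene Rps18-ps3 (0.879, uncertain by its parent gene) for Ccl6, Ank (0.868) and Dnajb14 (0.848) for Ccl3, and Ldha (0.791) and Igf1 (0.787) for Ccl4. For Cxcl16 they were Tmed3 (0.839) and Naca (0.819), for Ccl9 Trim35 (0.770) and Acadl (0.760), and for Ccl12 Rnf7 (0.840) and Add1 (0.83). For Ccl2 they were Fubp3 (0.711) and Zc3hav1 (0.707), and for Il16 Gna15 (0.834) and Frmd4a (0.811). Among the members themselves, r was 0.559 for Ccl3 with Ccl4, 0.406 for Ccl6 with Ccl3, 0.027 for Ccl6 with Ccl9 and -0.746 for Ccl3 with Il16. The replicates share group, library and depth, so these values are a description.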

How the data were processed

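Gene counts of single microglia were read as deposited by the authors, as whole-number counts per gene and cell for 36 libraries (69 to 80 cells each, 956491 to 2340598 counts). Per the submitters' processing notes, UMI-tools 0.5.3, HISAT2 2.1.0 and featureCounts 1.6.0 were used with GRCm38; whether identical molecules were merged is not stated, so counts may include copies of 1 molecule. Cells with fewer than 200 genes (3 cells) or more than 20% mitochondrial counts (0 cells) were removed, and no doublet caller was run on these sorted wells. Groups follow the sample titles. Counts were summed per animal, region and gate to 23 replicates and tested in 1 fit over the 6 groups with edgeR 4.0.16 (quasi-likelihood, TMM, filterByExpr, R 4.3.3, limma 3.58.1), adjusted by Benjamini-Hochberg over 14892 genes. Alternatives used DESeq2 1.42.0, other scaling and filters, thinned cells and left-out replicates. Counting intervals cover counting error only. Limits given as at least a fold put 3 counts in a group at 0. Intervals and limits take counts as separate events, while 1 cell can hold many counts, so the limits may be too high.

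Both gates of the cortex, and both regions of the WT and of the APP CD11c-negative cells, come from the same animals by their titles. Deviations of same-animal samples correlated at 0.046 to 0.076 for the gates, -0.03 to 0.026 for WT regions and -0.059 to 0.05 for APP regions. A fit with the animal as a block was made for each.

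The members and gene lists were chosen with earlier results of these data known. The text names all 10 members, with fold changes where the unadjusted p was under 0.05, genes drawn from those called or among the 3 most abundant in each list of related genes (cell type markers only where at 0), and the 2 genes most correlated with each member of at least 10 CPM. 1 gene of the receptor list is not reported here.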

Additional observations from a re-analysis of the deposited data

Results flagged for a closer look

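In 7 of 41 sets of a gene and a group, 1 replicate stood apart from the others of its group by Dixon's ratio. Its chance rate of about 1 in 20 sets does not hold for the 5 sets with 1 value above 0 and 3 at 0, where the ratio is at its maximum whatever the value. Ccl2 was 5.314 CPM in WT cortex replicate 1 and 0 in the other 3. Ccl3 was 1.409 CPM in WT hippocampus replicate 1 and 0 in the other 3. Ccl4 was 56.67 CPM in WT cortex replicate 4 and 0 in the other 3, and 109 CPM in APP CD11c-negative cortex replicate 4 against 0.631 to 4.323 CPM. Ccl12 was 73.53 CPM in WT hippocampus replicate 1 and 0 in the other 3. Cxcl16 was 203.5 CPM in APP CD11c-negative cortex replicate 1 against 65.42 to 86.62 CPM. Tnf was 7.741 CPM in CD11c-positive cortex replicate 4 and 0 in the other 3. The genotype effect on Ccl2 differed between the regions, with an adjusted p of 0.0376 in edgeR's interaction test.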

How the results depend on the processing

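Numbers of members called, by comparison, were 1 between the gates in cortex, 0 between the gates in hippocampus, 0 between genotypes in either region, 2 and 1 for CD11c-positive cells against WT in cortex and hippocampus, 1 between WT regions, 0 between APP regions in either gate, 0 for gate by region and 1 for genotype by region. With DESeq2 they became 2 (gates, cortex), 3 (gates, hippocampus), 1 (genotype, cortex), 1 (genotype, hippocampus), 2 (against WT, hippocampus), 1 (APP CD11c-negative regions) and 1 (gate by region). With no gene filter the members called became 2 (gates, hippocampus), 1 (genotype, hippocampus), 1 (against WT, cortex), 2 (against WT, hippocampus) and 1 (APP CD11c-negative regions). Of 26348 genes, those called up and down there were 94 and 12, 70 and 177, 77 and 66, 181 and 113, and 18 and 334. With genes per cell in the fit, 0 members were called for the gates in cortex, against WT in hippocampus, between WT regions and for genotype by region. Against WT in cortex 1 was called. That fit called 30 of all genes for the gates in cortex, 2 against WT in hippocampus, 31 for genotype by region and 48 against WT in cortex. Between WT regions it called 17 genes lower and 0 higher. With thinned cells, 1 member was called for the gates in hippocampus, 3 against WT in cortex and 2 against WT in hippocampus. Between regions it was 0 in WT and 1 in APP CD11c-negative cells. Of 10995 genes, those called up and down there were 73 and 17, 148 and 80, 183 and 85, 0 and 29, and 30 and 198. With only the compared groups fitted, 2 members were called for the gates in hippocampus and 1 against WT in cortex. Between WT regions and for genotype by region it was 0. All-gene calls up and down there were 44 and 14, 180 and 91, 0 and 0, and 7 and 106. Without cells carrying other markers, 1 member was called against WT in cortex and 0 between WT regions. Of 12346 genes, those called up and down there were 110 and 83, and 0 and 3. Leaving out 1 replicate gave 0 to 2 members for the gates in cortex, 0 to 1 between genotypes in hippocampus, 1 in every fit against WT in cortex, 1 to 2 against WT in hippocampus, 0 to 2 between WT regions, 0 to 1 between APP CD11c-negative regions and 0 to 1 for genotype by region. All-gene calls in these ran from 115 to 145, 169 to 259, 80 to 135, 129 to 296, 96 to 324, 183 to 315 and 118 to 174. Grouped by the genotype tag, the Ccl3 genotype difference in hippocampus was -1.48, the reverse of 3.33. The causes were not tested.

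With the animal as a replicate block, 1 member was called between the gates in cortex, 0 between APP CD11c-negative regions and 0 between WT regions, where Ccl3 was below the filter of that fit. All-gene calls with the block were 136 higher and 135 lower between the gates, and 0 in both region comparisons. The block changed no other call of a member.

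Of 450 alternative fold changes, 388 kept their direction and side of the threshold, 38 lost the call, 23 gained one and 1 reversed. None of 60 levels moved by more than 1 SD without TMM. DESeq2's scaling in edgeR moved the median log2 fold change of all genes from -0.217 to -0.344 between WT regions and from 0.015 to 0.141 between genotypes in hippocampus. Between APP CD11c-negative regions, 341 of all genes were called, 234 with only those groups fitted and 0 with the block in that same fit. Low counts limit Ccl2, Il1b and Tnf, and with no WT CD11c-positive group by title the gates were compared within APP mice only.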
